A study of Oryza sativa with 6 samples.

Results

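Sucrose synthases and invertases are the enzymes that break down the sucrose delivered to a growing grain. Their transcripts were followed in developing rice seeds of rbpl, a knockdown line of the RNA-binding protein RBP-L, and of the wild-type cultivar ZH11. The 10 genes were picked by locus identifier out of 55986 loci in the deposited expression table: 6 sucrose synthases (SUS1 to SUS6), 2 cell wall invertases (CIN1, and CIN2, which is also called GIF1) and 2 vacuolar invertases, 1 on chromosome 4 and 1 on chromosome 2. Each group held 3 biological repeats, named rbpl-1, rbpl-2 and rbpl-3, and WT-1, WT-2 and WT-3, after their labels. Seeds were dehulled and taken 10 to 14 days after flowering, and both genotypes were kept in growth chambers at 27 °C with days and nights of 12 h each. The knockdown is represented by a single line in the labels, so lower RBP-L and the descent of that line cannot be told apart. Levels are RPKM: reads scaled to gene model length and to sequencing depth. Library totals recovered from these values were 47633680, 50159592 and 48406895 reads for rbpl and 47072581, 44187374 and 50714582 reads for the wild type. How reads that match more than 1 family member were assigned is not given in the sources used here, so levels of close relatives are uncertain to that extent.

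Sucrose reaches the rice grain through the phloem and enters metabolism by either of these enzyme types. Sucrose synthase cleaves sucrose with UDP into UDP-glucose and fructose, which keeps the energy of the bond, and in the cereal endosperm it feeds starch and cell wall synthesis. Invertases split sucrose irreversibly into glucose and fructose: those bound to the cell wall act outside the cell, where sucrose is unloaded into the young grain, and those of the vacuole act inside it and set hexose and turgor. GIF1 is known in rice as a cell wall invertase needed for grain filling.

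RBP-L transcript (LOC_Os04g53440, chromosome 4) was 15.1, 14.4 and 15.3 RPKM in rbpl libraries 1 to 3, against 62.8, 56.8 and 51.2 RPKM in WT libraries 1 to 3. It fell by 1.86 on the log2 scale (SE 0.11, adjusted p = 0.000159 by limma on log2(RPKM + 1), with Benjamini-Hochberg adjustment over 17507 loci with a mean of at least 1 RPKM in at least 1 group). Over those loci 605 rose and 543 fell, which is 6.56% called at an adjusted p below 0.05. WT-1 was unlike the other 2 wild-type libraries. At 576 loci it lay at least 2-fold from both other wild-type libraries on the log2(RPKM + 1) scale, against 3 to 14 loci for each other library within its own group, and without WT-1 18.0% of 17372 loci were called. The limma fit of each tested gene of the 10 is therefore given with and without WT-1. WT-1 was set apart from these same data. WT-2 and WT-3, which remain, agree more closely than any other replicate pair (13.0 per degree of freedom by chi-square on reads). Errors and p-values without WT-1 are therefore likely too small, and those fits describe how far a result depends on WT-1. All 7 listed endosperm markers had reads in all 6 libraries and so did both listed oil body markers of embryo and aleurone.

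Of the 10 genes, 6 passed the filter: SUS1, SUS2, SUS3, SUS4, CIN2 and the vacuolar invertase of chromosome 2. None of the 6 rose or fell with all libraries. The count was 0 by limma and 0 by limma-voom on recovered reads, which called 6.27% of all tested loci. Before adjustment, p was below 0.05 for 2 of the 6 by limma, beside 21.6% of all tested loci. These 2, the chromosome 2 vacuolar invertase and SUS4, were higher in rbpl, and both rose without WT-1, where 8.51% of all tested loci rose. The median log2 fold change of the 6 genes was 0.25, and 0.15 without WT-1, beside −0.04 and −0.02 over all tested loci. The filter took genes by level, so the 6 are not the whole family.

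**Figure D1:**
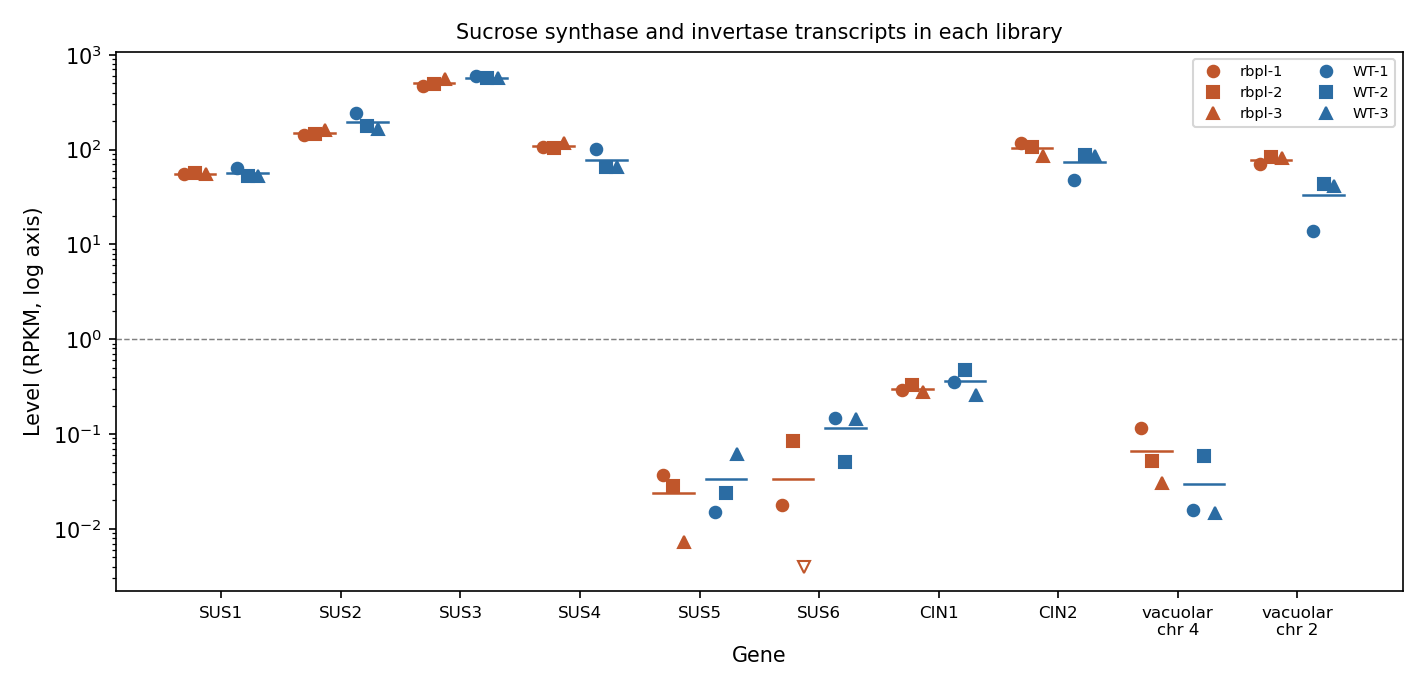
Level of each of the 10 genes in RPKM on a log axis, in the 3 rbpl libraries (left, orange) and the 3 wild-type libraries (right, blue), with bars at the group means. 6 genes lie above and 4 below the dashed line at 1 RPKM, and the open triangle is SUS6 in rbpl-3, listed at 0 and drawn at the foot of the axis.

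SUS3 (LOC_Os07g42490, chromosome 7) carried most of the sucrose synthase transcript. It had 474, 494 and 556 RPKM in rbpl libraries 1 to 3, against 597, 563 and 566 RPKM in WT libraries 1 to 3, from 66851 to 84984 reads per library. In RPKM without further scaling, all 3 rbpl libraries lay below all 3 wild-type libraries, with rbpl-3 close to WT-2. Its mean over the 6 libraries was higher than that of 99.2% of the tested loci. The means were 508 ± 42.7 RPKM in rbpl and 575 ± 18.8 RPKM in the wild type (SD, n = 3 each), a log2 fold change of −0.18 with a 95% interval from −0.44 to 0.07 (adjusted p = 0.381 by limma). Without WT-1 the log2 fold change was −0.16 (adjusted p = 0.279 by limma). As these are bulk seeds, fewer cells with the transcript and less transcript per cell cannot be told apart here or below.

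SUS2 (LOC_Os06g09450, chromosome 6), the next most abundant, had 144, 147 and 161 RPKM in the rbpl libraries, against 246, 176 and 164 RPKM in WT libraries 1 to 3. The groups did not overlap, but rbpl-3 and WT-3 differed by little, and WT-1 was 1.45-fold above the mean of WT-2 and WT-3. The means of 151 ± 9.15 RPKM in rbpl and 195 ± 44.2 RPKM in the wild type (SD, n = 3 each) gave a log2 fold change of −0.35 (interval −0.72 to 0.02, adjusted p = 0.256 by limma), and −0.17 without WT-1 (adjusted p = 0.205).

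SUS4 (LOC_Os03g22120, chromosome 3) pointed the other way. It had 107, 104 and 117 RPKM in the rbpl libraries, against 101, 66.0 and 66.3 RPKM in WT libraries 1 to 3. WT-1 lay just under the rbpl libraries, and WT-2 and WT-3 lay well below them. With all libraries the log2 fold change was 0.51 (SE 0.17, interval 0.11 to 0.91, unadjusted p = 0.0188, adjusted p = 0.136 by limma) between means of 109 ± 6.59 RPKM in rbpl and 77.9 ± 20.4 RPKM in the wild type (SD, n = 3 each). Without WT-1 it rose, with a log2 fold change of 0.72 (SE 0.09, adjusted p = 0.000165 by limma), a mean 1.65-fold that of WT-2 and WT-3. The library left out was the wild-type library nearest to rbpl, so this p-value is likely too small.

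SUS1 (LOC_Os03g28330, chromosome 3) had 55.3, 56.6 and 55.4 RPKM in the rbpl libraries, against 64.2, 53.2 and 52.1 RPKM in WT libraries 1 to 3. The rbpl values, within a coefficient of variation of 1.26%, lay between WT-1 and the other two. The log2 fold change was −0.01 (interval −0.27 to 0.24, adjusted p = 0.962 by limma), and 0.08 without WT-1 (interval −0.09 to 0.26, adjusted p = 0.537). A change of either sign within these bounds was therefore not resolved for SUS1, and the wider interval of SUS2 leaves a larger one unresolved.

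SUS5 (LOC_Os04g24430, chromosome 4) and SUS6 (LOC_Os02g58480, chromosome 2) were too low for the test. SUS5 ranged from 0.00726 to 0.0369 RPKM in rbpl and from 0.0149 to 0.0624 RPKM in the wild type, from 10 reads in all rbpl libraries and 14 in all wild-type libraries. SUS6 had 3, 15 and 0 reads in rbpl libraries 1 to 3, against 25, 8 and 26 reads in WT libraries 1 to 3. The groups overlapped for both. The 0 of rbpl-3 allows a SUS6 level of up to 0.0175 RPKM, the value of 3 reads in that library, for counting error only.

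**Figure D2:**
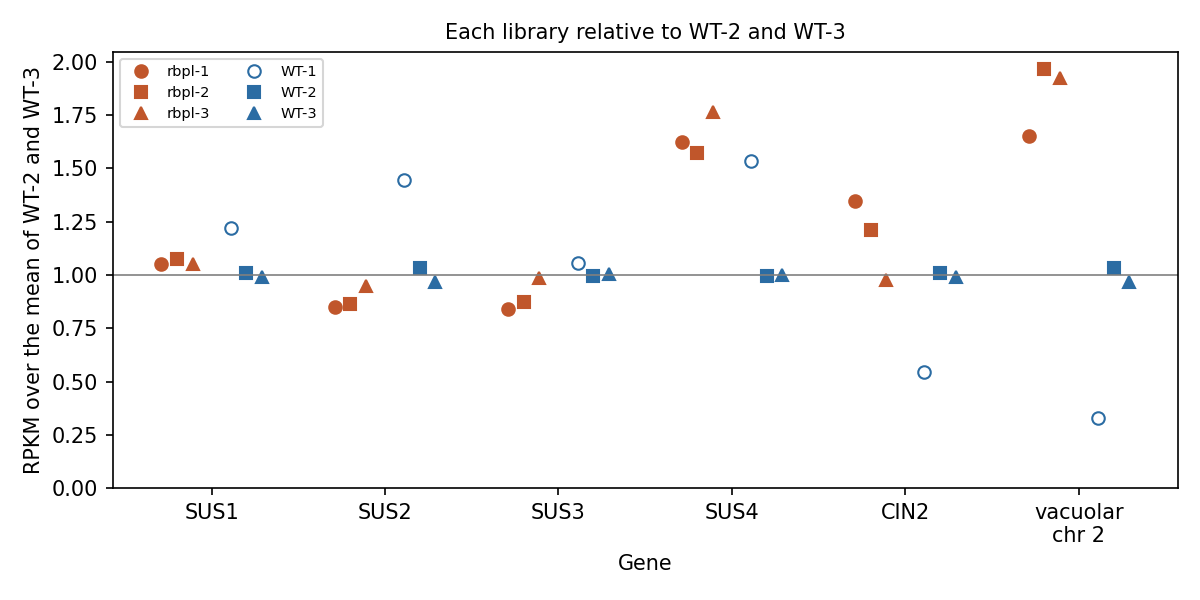
RPKM of the 6 tested genes in each library, divided by the mean of WT-2 and WT-3, with rbpl to the left (orange) of the wild type (blue, WT-1 open). WT-1 lies above WT-2 and WT-3 for all 4 sucrose synthases and below them for both invertases. For SUS3 it is only 1.06-fold their mean, less than the median-of-ratios scaling factor of WT-1 (1.09).

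Among the invertases, the vacuolar enzyme of chromosome 2 (LOC_Os02g01590) showed the widest gap between the groups among the 6 tested genes. Its level was 70.1, 83.5 and 81.6 RPKM in rbpl libraries 1 to 3, against 13.9, 43.8 and 41.1 RPKM in WT libraries 1 to 3, from 9226, 11570 and 10914 reads against 1810, 5351 and 5757 reads. Each rbpl library was above each wild-type library, and WT-1 was far below WT-2 and WT-3. The means were 78.4 ± 7.24 RPKM in rbpl and 32.9 ± 16.5 RPKM in the wild type (SD, n = 3 each), a ratio of 2.38. The log2 fold change of 1.38 (SE 0.38, interval 0.50 to 2.26) did not pass the threshold of 0.05 (unadjusted p = 0.00704, adjusted p = 0.0776 by limma). Without WT-1 the ratio to the mean of WT-2 and WT-3 was 1.85 and the log2 fold change 0.87 (SE 0.10, adjusted p = 0.000102 by limma), so it rose there with a smaller difference and a smaller error. The limit on errors and p-values without WT-1 holds here too.

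CIN2 (GIF1, LOC_Os04g33740, chromosome 4), the cell wall invertase of grain filling, had 118, 106 and 85.7 RPKM in rbpl libraries 1 to 3, against 47.7, 88.4 and 86.6 RPKM in WT libraries 1 to 3. The groups overlapped, since rbpl-3 lay below WT-2 and WT-3, and WT-1 was again the lowest library. The means were 103 ± 16.3 RPKM in rbpl and 74.3 ± 23.0 RPKM in the wild type (SD, n = 3 each). The log2 fold change was 0.51 (interval −0.05 to 1.07, adjusted p = 0.271 by limma), and 0.22 without WT-1 (adjusted p = 0.242).

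The other cell wall invertase, CIN1 (LOC_Os02g33110, chromosome 2), had 0.293, 0.326 and 0.280 RPKM in the rbpl libraries, against 0.355, 0.478 and 0.259 RPKM in the wild-type libraries. The other vacuolar invertase (LOC_Os04g45290, chromosome 4) had 15, 7 and 4 reads in rbpl libraries 1 to 3, against 2, 7 and 2 reads in WT libraries 1 to 3. Both were below the filter and their groups overlapped. Each invertase type was thus measured almost wholly through 1 of its 2 listed genes.

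The RPKM ranges of rbpl and the wild type did not overlap for 4 of the 6 tested genes (SUS2, SUS3, SUS4 and the chromosome 2 vacuolar invertase), beside 30.1% of all tested loci. For each of these 4 an exact two-sided permutation test on RPKM gave p = 0.1, the smallest that 3 against 3 libraries allow. Groups of this size that do not overlap always give this value, so the test adds nothing to the lack of overlap. The ranges are of RPKM without further scaling. Median-of-ratios scaling factors, used in 1 of the alternatives, ran from 0.960 for rbpl-1 to 1.09 for WT-1. A gap as narrow as that of SUS3 can close under such scaling.

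**Figure D3:**
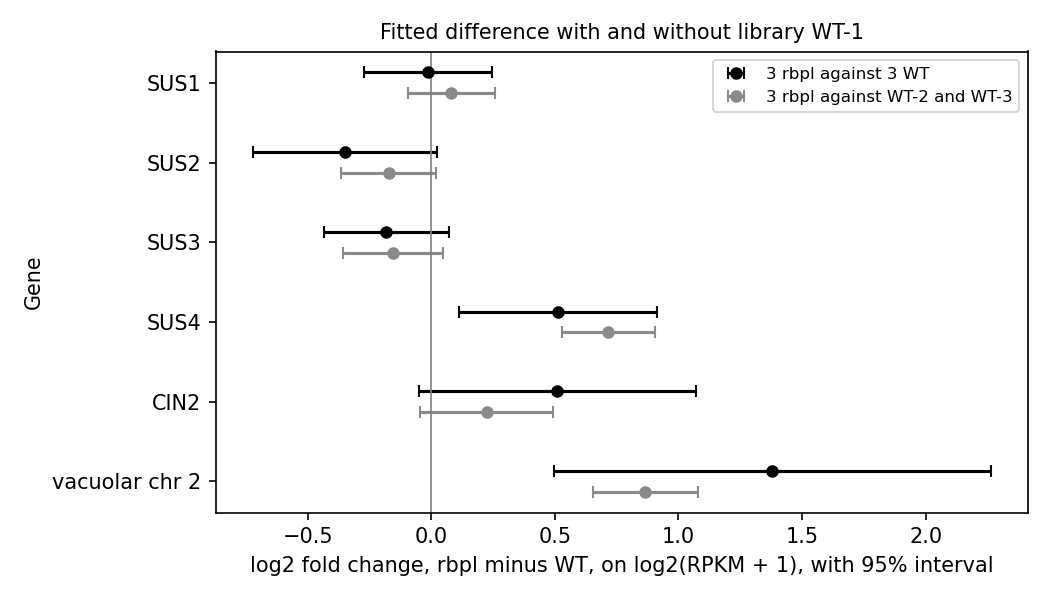
Fitted log2 fold change, rbpl minus WT, of the 6 tested genes with 95% intervals, for all libraries (black) and without WT-1 (grey). The intervals of SUS4 and of the vacuolar invertase of chromosome 2 lie above 0 in both fits, and the other 4 cross 0 in both. The intervals are not adjusted for the number of loci. With all libraries neither gene is called (adjusted p = 0.136 for SUS4 and 0.0776 for the vacuolar invertase by limma).

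In order of mean level the genes ran SUS3, SUS2, SUS4, CIN2, SUS1, vacuolar invertase of chromosome 2, CIN1, SUS6, vacuolar invertase of chromosome 4 and SUS5. SUS3 was above SUS2, and SUS2 above SUS4, in 6 of 6 libraries. SUS4 and CIN2 were not separated, as SUS4 was the higher of the 2 in 2 of 6 libraries. SUS1 and the chromosome 2 vacuolar invertase stood in opposite order in the groups: SUS1 was the lower of the pair in all 3 rbpl libraries and the higher in all 3 wild-type libraries. From there to CIN1 the mean level dropped 168-fold. SUS6 and the vacuolar invertase of chromosome 4 were not separated either, with SUS6 higher in 3 of 6 libraries.

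Summed over the 6 genes, sucrose synthase transcript was 781, 801 and 889 RPKM in rbpl libraries 1 to 3, against 1009, 858 and 849 RPKM in WT libraries 1 to 3, and the groups overlapped. Summed over the 4 genes, invertase transcript was 188, 190 and 168 RPKM in rbpl libraries 1 to 3, against 62.0, 133 and 128 RPKM in WT libraries 1 to 3, with no overlap. Its mean was 182 ± 12.5 RPKM in rbpl and 108 ± 39.5 RPKM in the wild type (SD, n = 3 each), and 130 RPKM over WT-2 and WT-3. The cell wall invertases alone summed to 118, 106 and 85.9 RPKM in rbpl libraries 1 to 3. In WT libraries 1 to 3 they summed to 48.1, 88.9 and 86.8 RPKM, so these groups overlapped. The vacuolar sums did not overlap, and nearly all of them came from the chromosome 2 gene. Sums and ratios over the genes are descriptions and were given no test.

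Summed over the same 10 genes, sucrose synthase transcript was 4.15, 4.22 and 5.31 times the invertase transcript in rbpl libraries 1 to 3. In WT libraries 1 to 3 it was 16.3, 6.46 and 6.63 times. Invertase loci outside the 10 genes are not in this ratio. The rbpl values were all below the wild-type values, and WT-1 stood far above every other library. The ratio averaged 4.56 ± 0.649 in rbpl and 9.78 ± 5.61 in the wild type (SD, n = 3 each), and 6.55 over WT-2 and WT-3. Among the invertases, the chromosome 2 vacuolar gene was at 0.595, 0.787 and 0.953 times CIN2 in rbpl libraries 1 to 3, against 0.291, 0.496 and 0.475 times in WT libraries 1 to 3, also without overlap.

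**Figure D4:**
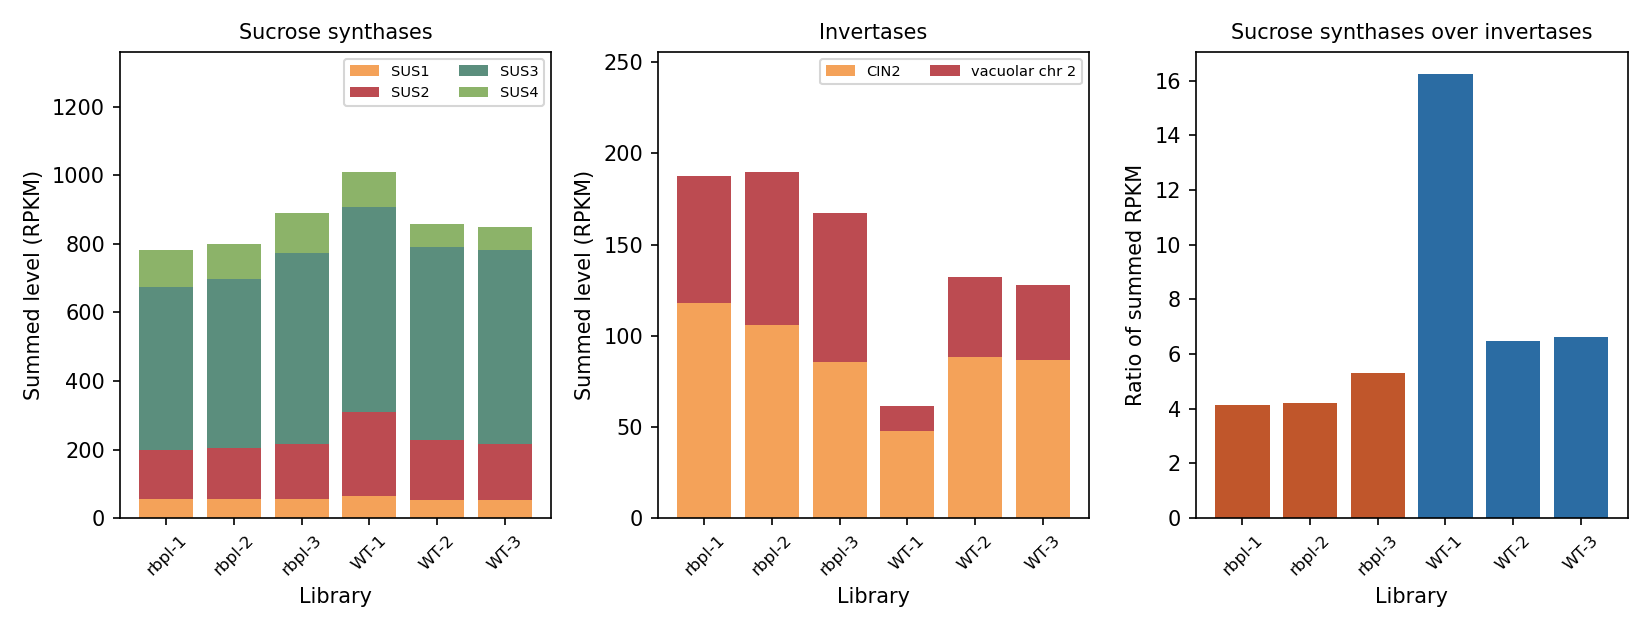
Summed RPKM of the tested sucrose synthases and of the tested invertases in each library, stacked by gene, and the ratio of the summed levels over all 10 genes. WT-1 has the highest sucrose synthase sum (1009 RPKM), the lowest invertase sum (62.0 RPKM) and the highest ratio (16.3).

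Within the summed sucrose synthase RPKM, SUS3 held 60.7%, 61.6% and 62.5% in rbpl libraries 1 to 3, against 59.2%, 65.6% and 66.7% in WT libraries 1 to 3. The groups overlapped only through WT-1. The difference of −2.22 percentage points between means of 61.6 ± 0.915% in rbpl and 63.8 ± 4.06% in the wild type (SD, n = 3 each) was −4.55 without WT-1 and −0.79 without WT-3. SUS2 held 18.5%, 18.3% and 18.1% in rbpl libraries 1 to 3, against 24.4%, 20.5% and 19.3% in WT libraries 1 to 3. SUS4 held 13.8%, 13.0% and 13.1% in rbpl libraries 1 to 3, against 10.1%, 7.69% and 7.81% in WT libraries 1 to 3. The share of SUS4 was thus higher in every rbpl library than in any wild-type library, WT-1 included, and that of SUS2 was lower. SUS1 held 6.79 ± 0.490% in rbpl and 6.24 ± 0.119% in the wild type (SD, n = 3 each), and the groups overlapped with all libraries but not without WT-1.

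Other loci of sucrose use were counted from 7 lists holding 29 loci, of which 19 were tested. The locus numbers were assigned to enzymes from general knowledge of rice, as were those of RBP-L and of the endosperm, oil body and green tissue markers; the files do not pair identifiers with names, so the assignments were not checked. Of the 19, 0 rose and 0 fell by limma, 0 were called by limma-voom, and before adjustment 0 had p below 0.05 by limma. Over all tested loci these shares were 6.56%, 6.27% and 21.6%. Their log2 fold changes ran from −0.26 to 0.23 with a median of −0.08. Without WT-1, 1 of 19 fell, beside 9.51% of all tested loci.

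The list nearest to the products of sucrose synthase is that of the fructokinases, which phosphorylate fructose. LOC_Os08g02120 had 566 to 649 RPKM in the rbpl libraries, against 407 RPKM in WT-1 and 743 and 696 RPKM in WT-2 and WT-3. Its log2 fold change was 0.01 (adjusted p = 0.978 by limma) and turned to −0.26 without WT-1 (adjusted p = 0.0726). The other fructokinase, LOC_Os01g66940, was the 1 locus called without WT-1, where it fell by 0.31 on the log2 scale (adjusted p = 0.0360 by limma). It had 26.0, 22.8 and 24.6 RPKM in rbpl libraries 1 to 3, against 20.9, 29.4 and 31.7 RPKM in WT libraries 1 to 3. The rbpl mean of 24.5 RPKM was below the 30.6 RPKM of WT-2 and WT-3, while WT-1 lay below every rbpl library, and with all libraries the adjusted p was 0.674 by limma.

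UDP-glucose pyrophosphorylase uses the UDP-glucose, and its more abundant locus, LOC_Os09g38030, averaged 228 ± 18.2 RPKM in rbpl and 228 ± 15.4 RPKM in the wild type (SD, n = 3 each). Among 10 hexokinases 7 were tested, the most abundant being LOC_Os01g53930 with 37.6 ± 1.98 RPKM in rbpl and 37.5 ± 4.10 RPKM in the wild type (SD, n = 3 each). Of the 6 further cell wall invertases, LOC_Os09g08072 alone was tested, at 14.5 ± 0.389 RPKM in rbpl and 16.0 ± 1.06 RPKM in the wild type (SD, n = 3 each; log2 fold change −0.14, adjusted p = 0.461 by limma). A further sucrose synthase, LOC_Os04g17650, had 2 reads over the rbpl libraries and 3 over the wild-type libraries.

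For sucrose synthesis, all 5 sucrose phosphate synthases and 2 of 3 sucrose phosphate phosphatases were tested. Their most abundant loci were LOC_Os01g69030, at 16.7 ± 0.420 RPKM in rbpl and 15.7 ± 1.72 RPKM in the wild type, and LOC_Os02g05030, at 12.7 ± 1.72 RPKM in rbpl and 13.8 ± 0.907 RPKM in the wild type (SD, n = 3 each). Among the 19 loci, the profiles most like that of SUS3, each centred on its own mean over the 6 libraries, were those of LOC_Os02g09170 (a sucrose phosphate synthase), LOC_Os02g05030 and LOC_Os02g02560 (a UDP-glucose pyrophosphorylase). Their root mean square differences from SUS3 were 0.03, 0.06 and 0.08 on the log2(RPKM + 1) scale, and the largest among the 19 was 0.33 (LOC_Os08g02120). SUS3 itself varied little over the libraries, so a nearly flat profile also gives a small difference.

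Markers of other seed tissues were read beside these levels, and the loci named from their lists were chosen after their values were seen. Of the 3 listed green tissue markers 2 rose, by limma and by limma-voom, beside 3.46% of all tested loci that rose by limma. LOC_Os12g17600, listed as a Rubisco small subunit gene, had 129, 131 and 130 RPKM in rbpl libraries 1 to 3, against 66.8, 85.1 and 82.5 RPKM in WT libraries 1 to 3 (log2 fold change 0.74, adjusted p = 0.0114 by limma). LOC_Os12g19470, listed as another, had 41.4, 38.7 and 45.5 RPKM in rbpl libraries 1 to 3, against 32.4, 26.7 and 29.8 RPKM in WT libraries 1 to 3 (log2 fold change 0.49, adjusted p = 0.0452 by limma). Neither call held throughout. That of LOC_Os12g17600 was lost without any 1 of the 3 rbpl libraries (adjusted p = 0.0622 to 0.0687 by limma), and that of LOC_Os12g19470 was lost with no filter (0.0841) and without any 1 library other than WT-1 (0.109 to 0.167). Both rose without WT-1, where 8.51% of all tested loci rose.

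The 3 green tissue markers summed to 2944, 3074 and 2588 RPKM in rbpl libraries 1 to 3, against 1213, 2694 and 2494 RPKM in WT libraries 1 to 3, and none was at 0 in any library. Most of each sum came from LOC_Os01g41710, listed as a chlorophyll-binding protein gene, with 2773, 2904 and 2413 RPKM in rbpl libraries 1 to 3, against 1114, 2582 and 2382 RPKM in WT libraries 1 to 3. It was not called (log2 fold change 0.50, adjusted p = 0.378 by limma, and 0.12 without WT-1, adjusted p = 0.476). WT-1 was the lowest library for LOC_Os01g41710 and LOC_Os12g17600, but for LOC_Os12g19470 it lay above WT-2 and WT-3.

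The 7 endosperm markers summed to 13390, 13217 and 14617 RPKM in rbpl libraries 1 to 3, against 21296, 14343 and 16539 RPKM in WT libraries 1 to 3, and WT-1 had the highest sum. With all libraries 0 of 7 rose or fell by limma or limma-voom, and before adjustment p was below 0.05 for 3 by limma. Over all tested loci 6.56% were called by limma and 6.27% by limma-voom, and 21.6% had p below 0.05 before adjustment. The log2 fold changes of the 7 ran from −0.85 to 0.18, and 3 were above 0. Without WT-1, 2 of the 7 fell, beside 9.51% of all tested loci. These were LOC_Os10g26060 and LOC_Os01g55690 (log2 fold changes −0.59 and −0.62, adjusted p = 0.0124 and 0.0148 by limma). Both are listed as genes of glutelin, the main storage protein of rice endosperm. The most abundant endosperm marker, LOC_Os05g41970, averaged 6596 RPKM in rbpl and 6057 RPKM in the wild type. The 2 oil body markers summed to between 4512 and 5894 RPKM in rbpl and between 4585 and 5135 RPKM in the wild type. Of these 2, 0 were called by limma or limma-voom, and before adjustment 0 had p below 0.05 by limma. The shares over all tested loci are those given for the endosperm markers. The part of tissue make-up in the levels of the sucrose synthases and invertases was not tested.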

How the data were processed

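Total RNA of dehulled seeds was sequenced by a company after preparation with the NEBNext Ultra RNA kit, per the labels' protocols. The authors deposited RPKM values per locus and library, per the file headers. The aligner, the counter, the build and the annotation were not given in the sources used here. All genes and lists were chosen with earlier results of these data known.

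The comparison of rbpl with WT was fitted on log2(RPKM + 1) with limma 3.58.1 in R 4.3.3, with trended and robust moderation and without covariates, over the 17507 loci with a mean of at least 1 RPKM in either group. Two-sided p-values were adjusted by Benjamini-Hochberg and called below 0.05. The pseudocount shrinks log2 fold changes of low loci. All 10 genes, RBP-L, every called locus and the most abundant locus of each pathway list, and the 3 pathway profiles nearest to SUS3 are named.

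Whole reads were recovered from the RPKM steps: 100% of the 32287 loci above 0 gave whole reads in all 6 libraries within 0.001 reads, up to a divisor shared by all counts. The loci held 93.0% to 94.0% of each library's total. On 3969 simulated loci, 97.5% were recovered exactly. On data simulated for rbpl against WT over 17507 loci, limma called 69% of loci changed 2-fold, 94% of those changed 4-fold and 8 unchanged loci. The changed loci were drawn only from those above the median level, and the changes were added on the log2(RPKM + 1) scale. Noise was independent between libraries, with none set apart as WT-1 was. The rates therefore do not cover lower loci or the spread of these wild-type libraries. No replicate pair agreed within sampling noise by chi-square on reads (at least 13.0 per degree of freedom). The reference table of 39387 rice genes matched 0 identifiers. Alternatives were another pseudocount, other filters, 2 scalings, limma without the trend and robust options, limma-voom with trimmed-mean factors on recovered reads, a replicate block and leaving out each library. Python 3.11.15 with numpy 2.4.6, pandas 2.3.3, scipy 1.17.1 and matplotlib 3.10.9 was used.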

Additional observations from a re-analysis of the deposited data

How the results depend on the processing

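RBP-L fell under each of the 14 alternatives (log2 fold change −1.93 to −1.79). SUS2, SUS3 and CIN2 kept their direction and stayed short of the threshold under all 14, with adjusted p by limma of at least 0.185, 0.279 and 0.227. Among the 10 genes, leaving out 1 library gave 0 to 2 calls, the 2 being SUS4 and the chromosome 2 vacuolar invertase without WT-1. When any other library was left out, neither was called. Over all fits with 1 library left out, the log2 fold change was 0.41 to 0.72 for SUS4 and 0.87 to 1.66 for the chromosome 2 vacuolar invertase. Signs near 0 turned. For SUS1 the log2 fold change was 0.062 with median-of-ratios scaling, 0.040 with upper-quartile scaling, 0.031 with limma-voom and −0.067 to 0.081 with 1 library left out. For LOC_Os09g38030 these were 0.075, 0.053, 0.043 and −0.063 to 0.054. With 1 library left out LOC_Os08g02120 had −0.26 to 0.18 and LOC_Os01g53930 −0.041 to 0.093. Leaving out 1 library gave 0 to 1 calls among the 29 pathway loci and 356 to 3130 over all loci, and a filter at 5 RPKM gave 660 over fewer loci (10744). The cause was not tested for the changes with scaling or left-out libraries.

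The replicate numbers are only shared: deviations of same-numbered libraries correlated at 0.048, 0.26 and −0.38, and 1 of 3 rbpl libraries correlated best with its own number. With the number as a replicate block, 1 of the 10 genes was called, the chromosome 2 vacuolar invertase (log2 fold change 1.38, adjusted p = 0.0332 by limma), and 963 loci in all. LOC_Os12g19470, called without the block, was not called with it (adjusted p = 0.0797). Depth limits SUS5, SUS6 and the vacuolar invertase of chromosome 4, with at most 26 reads per library.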
